A study of Mus musculus with 4 samples.

Results

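The genes described here are 10 amino acid transporters of activated lymphocytes, taken by symbol from the 35798 named genes of the count table: Slc3a2, Slc7a5, Slc7a6, Slc7a7, Slc7a8, Slc7a11, Slc7a1, Slc1a5, Slc38a1 and Slc38a2. Messenger RNA was sequenced from Ly49H+ NK cells, which carry the receptor for a protein of murine cytomegalovirus (MCMV), sorted from spleen on D3.5 of infection. Wild-type donor cells carried CD45.1 and TNFR2 KO donor cells, which lack a functional Tnfrsf1b gene in every tissue, carried CD45.2, and both had been injected together into the same NSG mice a day before MCMV. Each genotype had 2 libraries, every one made from the combined spleens of 3 hosts, and a wild-type and a TNFR2 KO library of like number shared their hosts. The study's methods give an age of 6 to 12 weeks for all mice, and all cells compared here were transferred and exposed to the virus, so that neither uninfected cells nor cells left in their donors were measured. NSG hosts lack their own T, B and NK cells but keep granulocytes and macrophages, and mice of the NOD background carry the CD45.1 form of CD45, the form by which wild-type donor cells were gated. Genotype, CD45 form and sort gate changed together and cannot be told apart in this design.

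Dividing lymphocytes import amino acids for protein synthesis, and import of leucine and glutamine keeps the growth kinase complex mTORC1 active. CD98 is a pair of proteins. Its heavy chain, made from Slc3a2, carries the pair to the cell surface. Its light chain, of the Slc7 family, moves the amino acids across and sets which ones pass. Other carriers work alone, among them the arginine and lysine carrier made from Slc7a1 and the sodium-driven glutamine carriers made from Slc1a5, Slc38a1 and Slc38a2. The study measured CD98 on the surface of NK cells by flow cytometry as a sign of nutrient uptake, and RNA levels of the same genes bear on that question without measuring protein.

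In TNFR2 KO libraries, 6 of the 10 genes fell and 3 were higher (edgeR's quasi-likelihood test, adjusted p under 0.05). Those 3 turned lower with NK lineage scaling, and the light chain gene Slc7a6 did not pass the test. The falls were of unlike size: Slc7a8, Slc7a7 and Slc7a11 fell by 3.44, 2.66 and 1.94 on the log2 scale. Slc7a5, Slc3a2 and Slc7a1 fell by 0.42, 0.31 and 0.22, but had log2-fold changes of -0.98, -0.87 and -0.78 with NK lineage scaling. All 3 glutamine carriers were higher with TMM scaling, which sets library totals so that the bulk of genes is level, by 0.43 for Slc1a5, 0.26 for Slc38a2 and 0.13 for Slc38a1, and each turned lower when the libraries were scaled on NK lineage genes instead. Among all 13822 genes tested, 26.2% were lower and 24.2% were higher at the same adjusted p, and duplicates differed little (biological coefficient of variation 3.33%). With the study's added limit of an absolute log2-fold change over 1, 3 of the 10 genes were lower and 0 were higher, against 11.8% and 1.56% of all genes. The highest log2-fold change among them was 0.43, so that 0 passed that limit upward at an unadjusted p under 0.05 either, and 0 did in DESeq2. All 10 passed the filter on low counts. Their median log2-fold change was -0.26, with quartiles of -1.56 and 0.10, beside a median of -0.0028 and quartiles of -0.29 and 0.18 for all genes tested.

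**Figure D1:**
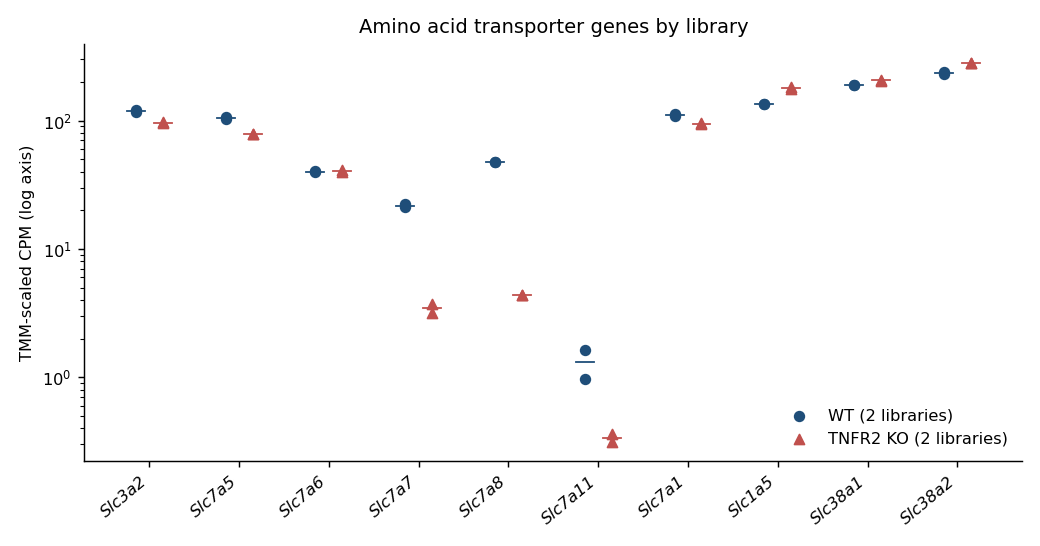
Counts scaled by TMM to a common library total (CPM, log axis) of the 10 transporter genes in each library, with circles for the 2 wild-type and triangles for the 2 TNFR2 KO libraries and short bars for group means. Slc7a8 went from 47.28 and 47.09 CPM to 4.343 and 4.37 CPM, the widest separation, while the points of Slc7a6 overlap.

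Libraries held between 32713256 and 39543650 counts. Tnfrsf1b, the targeted gene, fell from 264.7 and 268.6 to 55.14 and 58.59 CPM, a log2-fold change of -2.23, with reads over the gene remaining. With TMM scaling NK cell markers rose in TNFR2 KO libraries, 19 of 20 with a median log2-fold change of 0.84, and their summed level went from between 17470 and 17550 CPM to between 31820 and 32140 CPM. Markers of other cell types fell: 25 of 28 tested macrophage or monocyte markers were lower and 2 were higher (median -2.88), and lower too were 17 of 17 neutrophil markers (median -2.28), 9 of 10 mast cell or basophil markers (median -5.03), 7 of 13 dendritic cell or class II markers (median -1.26) and 11 of 12 erythroid markers (median -1.67), with 1 marker higher in each of the last 3 lists. For B cells, T cells and stroma, 2 of 3, 6 of 10 and 3 of 6 tested markers were lower, and 1, 2 and 1 were higher. Beside these counts, 26.2% of all genes tested were lower and 24.2% were higher. In bulk RNA, fewer cells of a type and less RNA per cell cannot be told apart.

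The heavy chain gene Slc3a2 (chromosome 19 of GRCm38, 8706882 to 8723369, minus strand) stood at 117.3 and 120.2 CPM in wild-type libraries. In TNFR2 KO libraries it stood at 95.19 and 96.82 CPM. Both KO values lay below both wild-type values, and the difference between genotype means, 22.7 CPM, was 7.83 times the wider gap between duplicates. For such a separation, here and in the genes below, the smallest two-sided p that exact permutation can give is 0.333. The share of all genes that separate in this way was not counted. The log2-fold change was -0.31 (standard error 0.0338, edgeR adjusted p = 9.6e-06), and the mean level fell by 19.2%, both with TMM scaling. Slc7a5 (chromosome 8, 121881150 to 121907694, minus strand) makes LAT1, the light chain through which lymphocytes take up leucine and other large neutral amino acids in exchange for glutamine. Wild-type libraries held 107.0 and 103.3 CPM of it and KO libraries 78.93 and 78.25, again without overlap. Its log2-fold change was -0.42 (standard error 0.0362, edgeR adjusted p = 1.05e-06), and the mean level fell by 25.2%, both with TMM scaling. Within the first host pool Slc3a2 and Slc7a5 were lower in the KO library by log2 ratios of -0.30 and -0.44, and within the second by -0.31 and -0.40.

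For comparison with the other activation proteins that the study stained on NK cells, Tfrc, which encodes the transferrin receptor CD71, went from 92.76 and 89.4 CPM to 68.58 and 68.92 CPM, a log2-fold change of -0.41 (edgeR adjusted p = 2.19e-06). Il2ra, the gene of CD25, went from 162.7 and 150.7 CPM to 131.3 and 129.6 CPM, a log2-fold change of -0.26 (edgeR adjusted p = 9.2e-05). With TMM scaling, the changes of Slc3a2, Slc7a5, Tfrc and Il2ra thus ranged from -0.42 to -0.26, all under the study's limit of 1 on the log2 scale.

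Slc7a6 (chromosome 8, 106168857 to 106198706, plus strand) encodes y+LAT2, a light chain that exchanges arginine for glutamine with sodium. Wild-type libraries held 39.55 and 40.17 CPM and KO libraries 41.18 and 39.64, so that the groups overlapped. The log2-fold change was 0.021, with a 95% interval from -0.09 to 0.13 (edgeR adjusted p = 0.759). It was the only one of the 10 genes without a call under TMM scaling, and its value became -0.54 with NK lineage scaling, -0.04 when libraries were scaled by size alone and -0.015 when genes under a mean of 10 CPM were left out. Within the host pools its log2 ratios were 0.06 and -0.02.

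Slc7a8 and Slc7a7 changed most. Slc7a8 encodes LAT2, a light chain for neutral amino acids large and small, and Slc7a7 encodes y+LAT1, a light chain that moves arginine and lysine across the membranes of epithelia and macrophages. Slc7a8 went from 47.28 and 47.09 CPM in wild-type libraries to 4.343 and 4.37 in TNFR2 KO libraries. Genotype means differed by 42.8 CPM and the wider gap between duplicates was 0.19 CPM. So near a tie between 2 libraries is a poor measure of the spread between replicates. The log2-fold change was -3.44 (standard error 0.0698, edgeR adjusted p = 1.08e-12), a 10.8-fold lower level. Slc7a7 went from 21.15 and 22.38 CPM to 3.154 and 3.746. Its log2-fold change was -2.66 (standard error 0.112, edgeR adjusted p = 1.11e-09), a 6.33-fold lower level. In neither gene did the genotypes overlap, and the log2 ratios within the host pools were -3.44 and -3.43 for Slc7a8 and -2.75 and -2.58 for Slc7a7. Of the 31-base stretches of Slc7a7, 5.91% lie opposite those of other genes, mostly Oxa1l, and since the strand setting of the counting is not stated, that part of its count is uncertain. Neither gene was at 0 in TNFR2 KO libraries, where 168 and 140 counts of Slc7a8 and 122 and 120 counts of Slc7a7 were recorded.

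Slc7a11 encodes xCT, the light chain that brings in cystine for glutathione synthesis in exchange for glutamate. It was the rarest of the 10 genes, with 62 and 36 counts in wild-type and 14 and 10 in TNFR2 KO, or 1.635 and 0.9765 CPM against 0.3619 and 0.3121 CPM. Both KO libraries lay below both wild-type libraries, which themselves differed by 0.658 CPM, and the log2 ratios within the host pools were -2.18 and -1.65. The log2-fold change was -1.94, with a 95% interval from -2.86 to -1.02 (edgeR adjusted p = 0.00219). Without wild-type replicate 1 it was -1.51 and no longer passed (edgeR adjusted p = 0.0656), while the other alternatives that kept the gene gave adjusted p values from 1.8e-05 to 0.0119.

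The 3 genes that fell most moved in the same direction as most macrophage or monocyte markers. Tested markers on that list had quartiles of -3.12 and -2.67, so Slc7a7 stood just above the upper and Slc7a8 below the lower of these values, with Slc7a11 less changed. Quartiles were -2.66 and -1.84 for neutrophil markers and -5.55 and -2.51 for mast cell or basophil markers. They were -3.49 and -0.45 for dendritic cell or class II markers and -2.33 and -1.09 for erythroid markers. Each of the 3 genes lay within the quartiles of more than 1 of these other lists. The most abundant genes of the list were Ctsd, Lyz2 and Ccr2, of which Lyz2, the macrophage and granulocyte lysozyme, went from 774.6 ± 4.41 to 112.2 ± 2.59 CPM (SD, n = 2 each), while the lysosomal protease gene Ctsd and the chemokine receptor gene Ccr2, at KO means of 1944 and 678.2 CPM, were higher by 0.15 and 0.78 on the log2 scale with TMM scaling. The summed level of the list ran from 4708 to 4730 CPM in wild-type and from 2983 to 2993 CPM in TNFR2 KO. Of the 30 markers on the list, the 2 not tested were Clec4f, a Kupffer cell marker with 0 counts in every library, and Vsig4, with 2 counts in all. The part of other cell types in the change of Slc7a7, Slc7a8 and Slc7a11 was not tested.

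**Figure D2:**
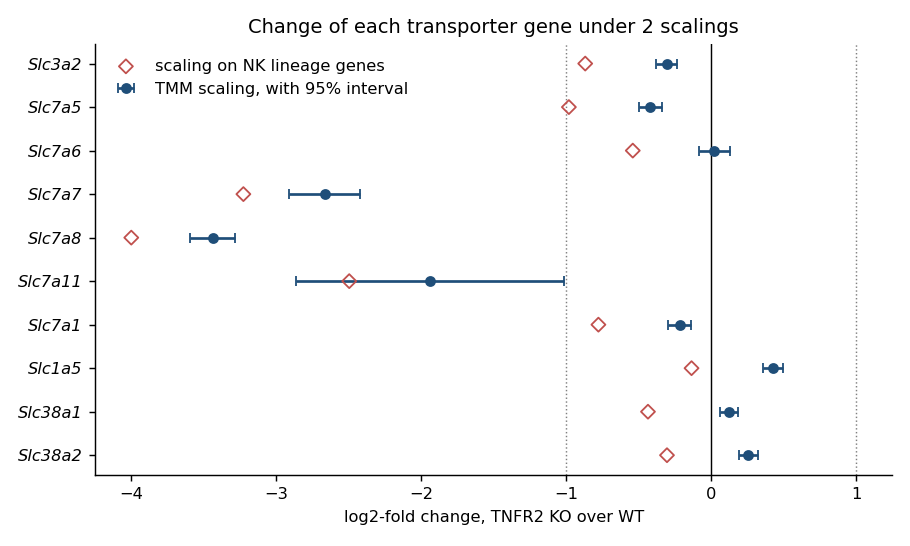
Log2-fold change of each transporter gene, TNFR2 KO over wild-type, with TMM scaling (circles, bars are 95% intervals) and with scaling on 36 NK lineage genes (open diamonds); dotted lines mark -1 and 1. With TMM, Slc1a5, Slc38a1 and Slc38a2 lie above 0 and with NK lineage scaling below it, while Slc7a7, Slc7a8 and Slc7a11 lie below -1 under both.

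Slc7a7 and Slc7a8 are also neighbours on the minus strand of chromosome 14, at 54369442 to 54417780 and 54722209 to 54781946, with 304 kb between them. Of the 16 protein-coding genes in that interval (GENCODE M21, GRCm38), 14 were tested, with a median log2-fold change of 0.12. Among all genes tested, 26.2% were lower (11.8% with the limit of 1 as well) and 24.2% were higher. Of the 14 in the interval, 2 were lower, 5 were higher and 7 were not called. Both lower genes, named here after their values were seen, passed the limit of 1 as well: Mmp14, a membrane-bound matrix protease gene, at -4.37, and Cebpe, which encodes a granulocyte transcription factor, at -2.81. Slc38a1 and Slc38a2 lie side by side on chromosome 15, at 96571418 to 96642913 and 96687392 to 96699730, with 44 kb and 0 protein-coding genes between them.

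The bases before the starts of Slc7a7, Slc7a8 and Slc7a11 are shown because these 3 genes fell together by more than the limit of 1. They come from RefSeq on GRCm38.p6, read on the minus strand, 5′ to 3′, for the start farthest upstream of each gene and without bases that GENCODE places inside the gene. Slc7a7 is shown at chr14:54417945-54418194, Slc7a8 at chr14:54781947-54782136 and Slc7a11 at chr3:50443615-50443863. Capitals mark the letters TGATGNAA or their reverse complement, the pattern of sites bound by ATF4, a transcription factor that answers amino acid shortage.
Slc7a7: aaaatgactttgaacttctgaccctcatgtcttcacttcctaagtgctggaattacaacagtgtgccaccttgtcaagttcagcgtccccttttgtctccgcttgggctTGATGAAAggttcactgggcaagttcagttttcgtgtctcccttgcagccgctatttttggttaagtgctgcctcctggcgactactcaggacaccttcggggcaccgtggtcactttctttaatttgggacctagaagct
Slc7a8: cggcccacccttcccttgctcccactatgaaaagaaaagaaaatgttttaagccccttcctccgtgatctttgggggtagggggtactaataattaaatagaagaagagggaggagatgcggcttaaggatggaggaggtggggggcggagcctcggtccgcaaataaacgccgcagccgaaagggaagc
Slc7a11: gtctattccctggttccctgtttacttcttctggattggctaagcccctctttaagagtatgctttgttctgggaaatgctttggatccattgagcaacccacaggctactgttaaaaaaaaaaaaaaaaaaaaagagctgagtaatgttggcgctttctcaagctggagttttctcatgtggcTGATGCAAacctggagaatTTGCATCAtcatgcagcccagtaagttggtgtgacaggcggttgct
The window of Slc7a11 held 2 matches, 1 on each strand, starting 66 and 47 bases before the start, and that of Slc7a7 held 1, starting 141 bases before it. The window of Slc7a8 held 0. Across 32851 RefSeq windows of 250 bases, 3.45% held this pattern on either strand. Windows were found for 7 of the 10 genes, 13 windows in all. A further start of Slc7a7 held 1 more match, and the windows of Slc3a2, Slc7a1, Slc7a6 and Slc38a2 held 0. The letters CACGTG (the E-box, in 6.02% of all windows), GAGGAAGT (the PU.1 core, in 2.44%) and a pattern of NF-kB sites (in 0.356%) had 0 matches in these 13 windows. Such matches describe the letters in these windows and do not show binding. Windows of Slc7a5, Slc1a5 and Slc38a1 were not used here.

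Slc7a1 (chromosome 5, 148327410 to 148399904, minus strand) encodes CAT1, which imports arginine and lysine without a heavy chain. Wild-type libraries held 111.8 and 108.1 CPM of it and KO libraries 93.09 and 96.36, with both KO values below both wild-type values. The log2-fold change was -0.22 (standard error 0.0361, edgeR adjusted p = 0.000325), and the mean level fell by 13.9%, both with TMM scaling. Its 95% interval, from -0.30 to -0.14, lay far above that of Slc7a7, from -2.91 to -2.42, which also makes a carrier of arginine and lysine. Within the host pools its log2 ratios were -0.26 and -0.17.

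The 3 glutamine carriers stood on the other side. Slc1a5 (chromosome 7, 16781340 to 16798274, plus strand) encodes ASCT2, an exchanger of neutral amino acids that supplies glutamine, and went from 134.4 and 133.5 CPM to 176.9 and 183.2. With TMM scaling its log2-fold change was 0.43 (standard error 0.0308, edgeR adjusted p = 1.99e-07), but -0.14 with NK lineage scaling. Slc38a2 encodes SNAT2, a carrier whose RNA rises in cells short of amino acids, and went from 239.7 and 228.5 CPM to 280.7 and 278.7. Its log2-fold change was 0.26 (standard error 0.0295, edgeR adjusted p = 1.44e-05) with TMM and -0.30 with NK lineage scaling. Slc38a1, which encodes the related carrier SNAT1, had 187.8 CPM in both wild-type libraries and 202.3 and 207.7 in KO libraries. The log2-fold change was 0.13 (standard error 0.0282, edgeR adjusted p = 0.00273) with TMM, 0.06 with library size alone as scaling, where it was no longer called (adjusted p = 0.0781), and -0.44 with NK lineage scaling. Of the 31-base stretches of Slc38a1, 6.59% occur in other genes, mostly in 4632432E15Rik, so that part of its count is less certain. The same holds for Slc3a2 and Slc7a11, with 4.15% and 2.84% of their stretches in other genes. Opposite those of other genes lie 4.15% of the stretches of Slc3a2 and 3.96% of those of Slc7a11. In all 3 glutamine carrier genes both KO libraries lay above both wild-type libraries on the TMM scale. For each, the smallest two-sided p that exact permutation can give is 0.333. Within the first host pool the log2 ratios of Slc1a5, Slc38a2 and Slc38a1 were 0.40, 0.23 and 0.11, and within the second 0.46, 0.29 and 0.15.

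Scaling on NK lineage genes took the level of 36 genes of the NK lineage as fixed between genotypes. Those genes were higher in TNFR2 KO with TMM scaling, 33 of 36, by a median of 0.56, and holding them fixed moved the median change over all genes to -0.56 on the log2 scale. All 10 transporters were then called lower and 0 higher, but so scaled 11143 of all 13822 genes tested were lower and 303 higher, so that these calls do not set the transporters apart. Measured from that median, the changes were again 0.43 for Slc1a5, 0.26 for Slc38a2 and 0.13 for Slc38a1, and -0.30 for Slc3a2, -0.42 for Slc7a5 and -3.43 for Slc7a8, so the order of the genes was the same and the zero point differed.

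Summed over the 10 genes, RNA came to 1008 and 991.9 CPM in wild-type libraries and 976.1 and 989.1 in KO libraries, and the nearest libraries of the 2 genotypes were closer to each other than the duplicates of either. The makeup of that sum differed. Slc1a5, Slc38a1 and Slc38a2 together made up 55.8% and 55.4% of it in wild-type and 67.6% and 67.7% in TNFR2 KO. Slc3a2, Slc7a5 and Slc7a1 made up 33.4% in each wild-type library and 27.4% in each TNFR2 KO library. The share of Slc7a7, Slc7a8 and Slc7a11 went from 6.95% and 7.10% to 0.805% and 0.852%. With so few libraries, the smallest two-sided p that exact permutation can give for such a share is 0.333.

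Levels of different genes can be compared only per length of transcript, and the length to use was uncertain. The median protein-coding transcript in GENCODE M21 is 647 bases for Slc3a2, 691 for Slc7a6, 717 for Slc7a7 and 1233.5 for Slc7a1, against longest transcripts of 2813, 3750, 2278 and 7179 bases, because the annotation holds many short models of these genes. Per kb of the longest transcript, wild-type libraries had 51.4 and 49.0 CPM per kb of Slc38a2, 48.6 and 48.3 of Slc1a5, 41.7 and 42.7 of Slc3a2, 30.4 and 29.4 of Slc7a5 and 25.9 and 25.8 of Slc38a1. Slc38a2 and Slc1a5 differed by less than the duplicates of Slc38a2 did, whereas Slc1a5, Slc3a2, Slc7a5 and Slc38a1 each lay apart from the next. Lower down came Slc7a1 with 15.6 and 15.1, Slc7a8 with 11.6 and 11.5, Slc7a6 with 10.5 and 10.7, Slc7a7 with 9.28 and 9.82, and Slc7a11 with 0.177 and 0.106 CPM per kb. In TNFR2 KO libraries the order began with Slc1a5 at 64.0 and 66.3, then Slc38a2 at 60.2 and 59.8, and Slc7a7 and Slc7a8 stood at 1.38 and 1.64 and at 1.06 and 1.07 CPM per kb. Per kb of the median transcript, Slc3a2 would lead in wild-type with 181 and 186 CPM per kb, so the order between genes rests on the length chosen.

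Light chains pair with the same heavy chain, and their makeup was described per library as shares of the summed CPM per kb of Slc7a5, Slc7a6, Slc7a7, Slc7a8, Slc7a10 and Slc7a11. Slc7a10, a light chain of the nervous system, had 1 count in all. With median transcript lengths, Slc7a7 held 22.9% and 23.9% of the wild-type sum and 5.02% and 6.08% of the KO sum, and Slc7a8 held 8.97% and 8.84% against 1.21% and 1.24%. Slc7a5 held 23.6% and 22.5% in wild-type and 25.6% and 25.9% in TNFR2 KO, and Slc7a6 44.4% and 44.6% against 68.1% and 66.7%. With longest transcripts, which are closer to whole mRNAs for Slc7a6 and Slc7a7, Slc7a5 held most in both genotypes, at 49.1% and 47.7% in wild-type and 62.5% and 62.6% in TNFR2 KO. Slc7a8 then went from 18.7% in each wild-type library to 2.96% and 3.01%, Slc7a7 from a mean of 15.5% to 3.86% and 4.62%, and Slc7a6 from 17.0% and 17.4% to 30.6% and 29.7%. By either length, Slc7a7 and Slc7a8 took up less and Slc7a6 more of the light chain RNA in both KO libraries than in both wild-type libraries. A share depends on the other genes in the sum, and the level of Slc7a6 itself was not called changed. Per kb of the median transcript it was 57.24 and 58.14 CPM in wild-type and 59.6 and 57.37 CPM in TNFR2 KO. The part of other cell types in these shares was not tested. The light chain sum per unit of Slc3a2 went from 0.712 and 0.702 to 0.595 and 0.574 with median lengths and from 1.49 and 1.44 to 1.06 and 1.03 with longest lengths.

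**Figure D3:**
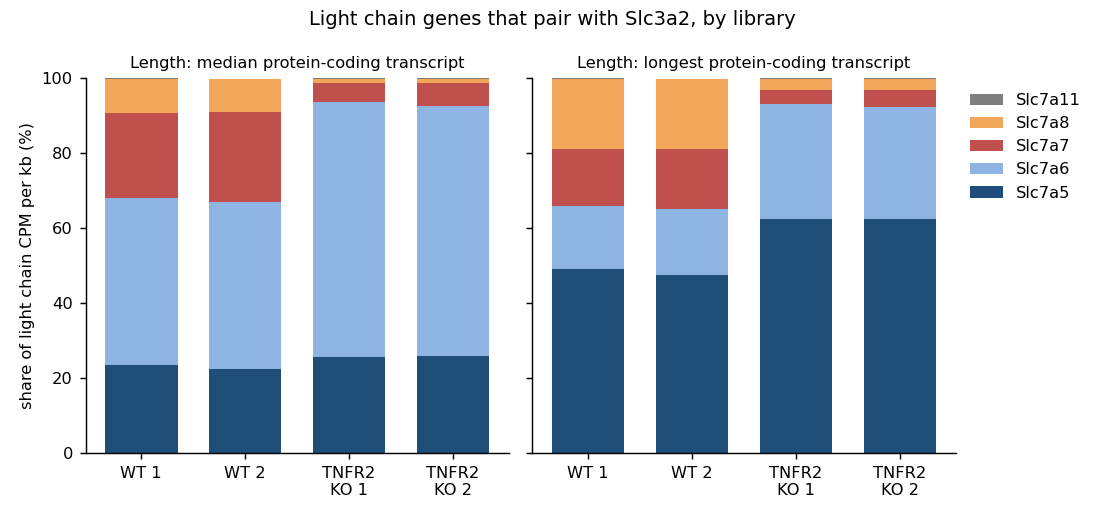
Share (%) of each light chain gene in the summed CPM per kb of the light chains that pair with Slc3a2, 1 bar per library, with median transcript lengths on the left and longest on the right. In both panels the segments of Slc7a7 and Slc7a8 are thinner in both TNFR2 KO bars, and Slc7a8 on the right goes from 18.7% to 2.96% and 3.01%.

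A longer list of 39 other surface amino acid transporters had 16 tested genes, of which 9 were lower and 1 was higher, beside 26.2% and 24.2% of all genes. The median log2-fold change was -0.62, and 6 were lower past both limits against 11.8% of all genes, while 0 were higher past both, the highest change being 0.53. With genes under a mean of 10 CPM left out, 4 were lower and 2 were lower past both limits. In that setting 2505 of 8765 genes were lower and 424 were lower past both. Slc7a2, Slc1a3 and Slc6a9 were among the genes left out, so the smaller counts come in part from genes no longer tested. Another 7 of the 39 had 0 counts in every library. Slc43a2, which encodes a large neutral amino acid carrier that works without a heavy chain, fell by 1.28 on the log2 scale, from 90.82 ± 1.84 to 37.61 ± 2.48 CPM (SD, n = 2 each). Slc16a10, the gene of a carrier of aromatic amino acids, fell from 25.75 ± 1.14 to 12.18 ± 0.559 CPM (SD, n = 2 each). The inducible arginine carrier gene Slc7a2 (log2-fold change -3.39), the glutamate carrier gene Slc1a3 (-2.39) and the glycine carrier gene Slc6a9 (-2.30) also fell, all from a mean of 4.041 CPM or less in wild-type. Among the 3 most abundant genes, the taurine carrier gene Slc6a6 fell by 0.64 on the log2 scale, from 135.7 ± 2.83 to 86.92 ± 1.51 CPM (SD, n = 2 each), and Slc38a10 was higher by 0.14 with TMM scaling, as the only gene of the list called higher, and was not called higher with scaling on NK lineage genes.

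Of 19 tested carriers of the lysosome and mitochondria, 7 were lower and 2 were higher, beside 26.2% and 24.2% of all genes. Their median log2-fold change was -0.10. Only 4 were lower in DESeq2, and 1 was higher without wild-type replicate 1 or without TNFR2 KO replicate 1. Slc15a3, which moves histidine and small peptides out of lysosomes, was the only one past both limits, with a log2-fold change of -2.75, from 70.59 ± 0.514 to 10.49 ± 0.405 CPM (SD, n = 2 each). Of all genes tested, 11.8% were lower past both. Among the most abundant, the mitochondrial serine carrier gene Sfxn1 fell by 0.15 and its relative Sfxn3 was higher by 0.68 on the log2 scale with TMM scaling, while the aspartate and glutamate carrier gene Slc25a12 had a log2-fold change of -0.016 (edgeR adjusted p = 0.747).

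Of 40 tested genes that pass the amino acid signal to mTORC1, 4 were lower, 14 were higher and 22 were not called, beside 26.2% lower and 24.2% higher among all genes. Their median log2-fold change was 0.04. Fnip2, which encodes a partner of folliculin in that pathway, was the only one past both limits, falling from 24.53 ± 0.851 to 9.826 ± 0.874 CPM (SD, n = 2 each). Of all genes tested, 11.8% were lower past both. Sesn3, a sestrin gene whose family includes leucine sensors, was higher by 0.53, and Eif4ebp2, which encodes a translation repressor that mTORC1 phosphorylates, by 0.11, both with TMM scaling. Sec13 had a log2-fold change of 0.010 (edgeR adjusted p = 0.821). Calls of higher genes on this list numbered 5 with library size alone as scaling, 6 with DESeq2, 9 without wild-type replicate 1 and 0 with scaling on NK lineage genes, and 2 genes were lower past both limits without TNFR2 KO replicate 2.

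On a list of 34 genes of the ATF4 response to amino acid shortage, with tRNA synthetases among them, 15 of 31 tested genes were lower and 5 were higher, beside 26.2% and 24.2% of all genes, with a median of -0.12. The higher calls numbered 2 without wild-type replicate 1, 2 in DESeq2, 1 with library size alone and 0 with NK lineage scaling. Past both limits were 3 of the 31, all lower, beside 11.8% of all genes lower past both, so that this count does not set the list apart. They were Cebpb (-1.46), Nupr1 (-2.40) and Atf3 (-1.75), genes of transcription regulators that stress induces. Atf4 itself went from 214.5 ± 3.09 to 227.1 ± 1.28 CPM (SD, n = 2 each), higher by 0.08 on the log2 scale with TMM scaling, and the synthetase genes Gars and Aars fell by 0.11 and 0.09 on the log2 scale. Among 32 genes that use glutamine, cystine or arginine inside the cell, 19 of 31 tested were lower and 5 were higher. Of all genes tested, 26.2% were lower (11.8% past both limits) and 24.2% were higher. The median of these 31 genes was -0.23. Here the higher calls numbered 2 without wild-type replicate 2, 3 in DESeq2, 2 with library size alone and 0 with NK lineage scaling, and 5 genes were lower past both limits without TNFR2 KO replicate 2. Nos2 (-3.60), Arg2 (-2.54) and Arg1 (-2.41), which consume arginine, were lower past both limits, each from a mean of 4.989 CPM or less in wild-type. Of the most abundant genes, Ass1, which rebuilds arginine from citrulline, fell from 314.5 ± 3.39 to 230.5 ± 0.209 CPM (SD, n = 2 each), while Glud1, the glutamate dehydrogenase gene, and Txnrd1, the thioredoxin reductase gene, were higher by 0.08 and 0.09 on the log2 scale with TMM scaling. With scaling on NK lineage genes, 1 lysosomal or mitochondrial carrier was called higher and 0 genes of the other lists in these paragraphs. Macrophage, neutrophil and mast cell markers, with medians of -2.88, -2.28 and -5.03, fell in the same libraries as the lower genes of these lists, and their part in those counts was not tested.

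**Figure D4:**
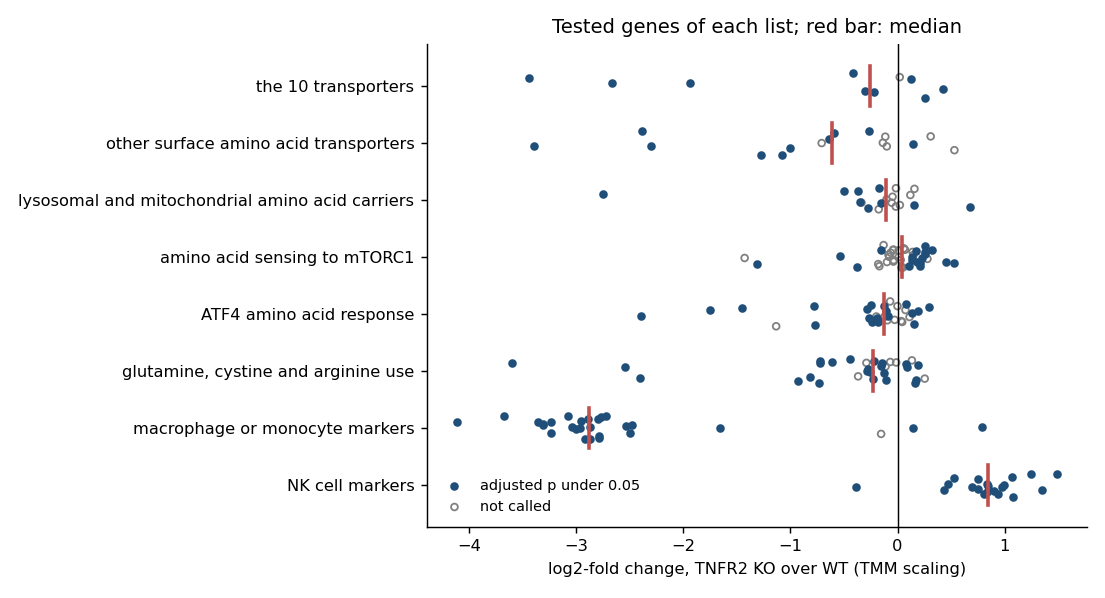
Log2-fold change, TNFR2 KO over wild-type with TMM scaling, of every tested gene on the transporter, pathway and 2 marker lists; filled points passed an adjusted p of 0.05 in edgeR, open points did not, and red bars are medians. Medians of the transporter and pathway lists lie between -0.62 and 0.04, while that of macrophage or monocyte markers is -2.88 and that of NK cell markers 0.84; with scaling on NK lineage genes the points would shift left by about 0.56.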

How the data were processed

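RNA was sequenced from 4 libraries. The authors trimmed paired-end reads with Trimmomatic (given as 1.4), assigned them to mm10 transcripts with kallisto 0.46.1 and collapsed them to genes in Tximport. What the authors deposited are estimated counts (expected counts) per symbol, not scaled between libraries. No annotation is named in the sources used here. The library was stranded, but the strand setting of the counting is not stated.

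Estimated counts were rounded to whole numbers. A row without a gene name held between 0.0559% and 0.0728% of each library and was left out. Low genes were removed by filterByExpr, TMM set the scaling, and the quasi-likelihood test of edgeR 4.0.16 in R 4.3.3 compared genotypes with no other covariate. P-values were adjusted by Benjamini-Hochberg and called at an adjusted p under 0.05, with an absolute log2-fold change over 1 as the added limit. The steps were also checked on simulated counts. The transporters and all gene lists were chosen with earlier results of these data known, so no list was tested as a set. Both pools came from a single experiment, so p-values measure the spread between these libraries, which may be partly technical. Duplicates differed by more than counting noise: chi-square averaged 3.29 over genes in wild-type and 3.49 in TNFR2 KO.

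By the labels, same-numbered libraries came from the same pooled spleens, so the replicate numbers pair the samples; over genes, paired libraries deviated from the mean of their genotype with r = 0.0575, and a paired fit with the replicate block was an alternative. Other alternatives were DESeq2 1.42.0, no filter, scaling by NK lineage genes, by library size alone, by upper quartiles or by the size factors of DESeq2, a mean of at least 10 CPM, and each library left out in turn. Lengths and positions come from GENCODE M21 on GRCm38. Named genes were the 10 transporters, Tnfrsf1b, Tfrc and Il2ra. Of each pathway list, genes past both limits (at most 5 per direction) and the 3 most abundant were named. Of the marker lists, genes are named for macrophages or monocytes alone: the most abundant and the 2 that were not tested. Of the written symbols, 1 (Samtor) had no match in the table, and older symbols were matched through RefSeq synonyms.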

Additional observations from a re-analysis of the deposited data

How the results depend on the processing

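The direction and call of Slc3a2, Slc7a5, Slc7a1, Slc7a7 and Slc7a8 held under every alternative run. With TMM replaced by scaling on NK lineage genes, the log2-fold changes of Slc1a5, Slc38a2, Slc38a1 and Slc7a6 turned to -0.14, -0.30, -0.44 and -0.54, and that of Slc7a6 turned to -0.04 with library size alone and to -0.015 with a mean of at least 10 CPM. Slc38a1 lost its call with library size alone and Slc7a11 without wild-type replicate 1. The paired fit with the replicate block called 6 of the 10 transporters lower and 3 higher, as without it, and moved no count of calls by over 1.5 times. The median of the 10 genes was -0.32 with library size alone, -0.82 with NK lineage scaling and -0.25 with a mean of at least 10 CPM, a setting that leaves Slc7a11 out, and from -0.27 to -0.23 with each library left out.

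Scaling on NK lineage genes called 11143 of all 13822 genes lower (2685 past both limits) and 303 higher. Under it 10 transporters were lower and 0 higher, with 0 higher among other surface transporters, sensing, ATF4 and amino acid use genes. The same scaling called 18 lysosomal or mitochondrial carriers lower (2 past both limits) and 1 higher, 36 sensing genes lower (3 past both), 30 ATF4 genes lower (6 past both) and 29 amino acid use genes lower (10 past both). With a mean of at least 10 CPM, 2505 of 8765 genes were lower (424 past both limits) and 2478 higher. There 4 other surface transporters were lower (2 past both) and 7 sensing genes were lower. Higher were 1 lysosomal or mitochondrial carrier and 2 amino acid use genes, and 0 amino acid use genes were lower past both. Nos2, Arg1 and Arg2 fall under that mean and were left out. Library size alone, with 4388 of all genes lower and 2419 higher, gave 8 lower and 5 higher sensing genes and 1 carrier, 1 ATF4 gene and 2 amino acid use genes higher. DESeq2, with 2641 of 15233 genes lower and 2348 higher, gave 4 carriers lower and 1 higher, and 6 sensing, 2 ATF4 and 3 amino acid use genes higher. The cause of these differences between settings was not tested.

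With each library left out in turn, lower calls ranged from 5 to 6 among the 10 transporters, with 2 to 3 past both limits, 7 to 11 among other surface transporters (5 to 8 past both), 5 to 8 among carriers, 3 to 5 among sensing genes (1 to 2 past both), 13 to 14 among ATF4 genes and 16 to 19 among amino acid use genes (3 to 5 past both). Higher calls ranged from 1 to 2 among carriers (1 without wild-type replicate 1 or TNFR2 KO replicate 1), 9 to 13 among sensing genes (9 without wild-type replicate 1), 2 to 5 among ATF4 genes (2 without wild-type replicate 1) and 2 to 4 among amino acid use genes (2 without wild-type replicate 2). Each of these fits left a single library in a genotype. At an adjusted p under 0.05, fewer of all genes were called in each of them too, both lower and higher. These ranges therefore do not set the lists apart from other genes.

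Mean light chain shares depended on length. With longest transcripts in place of median ones, the wild-type shares of Slc7a5, Slc7a6, Slc7a7 and Slc7a8 were 48.4%, 17.2%, 15.5% and 18.7%, and the TNFR2 KO shares 62.5%, 30.1%, 4.24% and 2.98%. Without division by length they were 48.8%, 18.6%, 10.1% and 21.9% in wild-type and 61.8%, 31.8%, 2.71% and 3.42% in TNFR2 KO. Depth limits Slc7a11 most, as its counts were the fewest of the 10.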
